A study of Mus musculus with 180 samples.

Results

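The definitive endoderm-like cells of mouse embryoid bodies were studied here across genes and across the cultures pooled in 1 single-cell library. Embryoid bodies are free-floating aggregates in which embryonic stem cells differentiate without added patterning signals. A cell was called endoderm-like when it had at least 1000 detected genes, at most 15% mitochondrial unique molecular identifiers (UMIs, each 1 captured mRNA molecule), at least 3 UMIs of Epcam and at least 2 UMIs of at least 2 of the genes Foxa2, Sox17, Cer1, Trh and Spink1. The cells were thus chosen by their own UMIs of these 6 genes. By this rule 1319 of 17789 kept cells (7.42%) were endoderm-like, out of 20134 cell barcodes in all. They are set against the 16470 other kept cells of the same library.

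The study compared stem cells of the mouse strains C57BL/6J (B6), DBA/2J (D2) and their recombinant inbred BXD lines, and it included 1 library of embryoid bodies labelled as holding B6 and D2 cells together. Stem cells were held 48 hours in the epiblast-like state, aggregated at 750 cells per embryoid body for 48 hours and then rotated for another 48 hours. Each culture was tagged with its own lipid-anchored DNA barcode (MULTI-seq) before pooling on 1 lane of the 10x Chromium v3 system, so the table of barcode counts, called hash counts here, gives the culture of a cell. The hash column D2 is a tag name and is not the strain D2. The 12 hash columns are named D1, D2, D31, D32, D331, D332, D333, C1, CB, B1, B2 and B3. The labels number fewer barcodes than the table has columns, and all 12 columns were used. The labels tie no letter to a strain and do not say whether the 5 columns beginning with D3 come from 1 line or whether any column is a separate derivation. Columns are therefore called by their names, and p-values between letters measure only the spread between columns.

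Definitive endoderm forms from epiblast cells that pass through the primitive streak under Nodal and Wnt signals, become epithelial and go on to line the gut. Visceral endoderm forms earlier, surrounds the epiblast and supplies it with nutrients through apolipoproteins, carrier proteins such as transthyretin (Ttr) and the endocytic receptors cubilin and megalin. Both use Foxa2, Sox17 and Epcam, so these genes alone do not separate them, and visceral cells also join the early gut.

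The endoderm-like cells were as deeply sequenced as the rest, with a median of 38770 UMIs and 5924 genes per cell, against 37868 UMIs and 5710 genes in the other kept cells. The doublet caller Scrublet marked 229 of the 1319 endoderm-like cells (17.4%) and 995 of the other kept cells (6.04%). Marked endoderm-like cells had a median of 67264 UMIs, and 41.5% of them had no single leading hash column, that is, no column with at least 2 times the count of the next. Values are therefore also given for the 1017 endoderm-like cells that were unmarked and had a leading column. Of the 1151 endoderm-like cells with a leading column, 1045 were in D, 73 in C and 33 in B columns. A check chosen after the values were seen used the summed level of Tpm3-rs7, Gm11361 and Gm10260, which split the letters. Levels are in CPM throughout, the UMIs of a gene scaled to a common total of UMIs. By this check 2 of 1045 endoderm-like D cells fell under 100 CPM and 3 of 33 endoderm-like B cells reached it. Leaving out cells that went against their letter changed none of the summary calls below. Tpm3-rs7, a near-identical copy of Tpm3 whose counts can be mixed up with it, stood at 242 to 257 CPM in the endoderm-like cells of D columns, 146 and 148 CPM in those of the C columns, and 36.1, 46.9 and 17.8 CPM in those of B1, B2 and B3.

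The 6 genes of the rule are given as a description, since they chose the cells. CPM values are summed over the cells of a group, as above. Epcam, an epithelial adhesion molecule, was at 490.5 CPM in endoderm-like cells and 15.7 CPM in other kept cells, with a median of 19 UMIs per endoderm-like cell. Foxa2, a pioneer transcription factor of endoderm, was at 99.1 CPM against 2.41 CPM. Sox17, the transcription factor that marks endoderm formation, was at 206 CPM against 8.59 CPM. Spink1, a trypsin inhibitor, was at 1496 CPM against 13.6 CPM. Trh, the precursor of thyrotropin-releasing hormone, was at 393 CPM against 4.73 CPM, yet only 681 of 1319 endoderm-like cells (51.6%, exact Clopper-Pearson 95% interval 48.9 to 54.4%) had a Trh UMI. Cer1, a secreted Nodal, Wnt and BMP antagonist of anterior endoderm, was at 11.2 CPM against 0.200 CPM and was found in 8.26% of endoderm-like cells. The usual combination was Foxa2, Sox17 and Spink1 without Trh or Cer1, in 543 cells (41.2%), and 304 cells (23.05%) added Trh to it. All 5 genes passed in 42 cells.

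In Cldn6, a claudin outside the rule, cells close to the cut-offs lay between all endoderm-like cells (287 CPM) and other kept cells (5.91 CPM). Spink1 and Sox17 helped to choose these sets, so their values are descriptions only. The 66 endoderm-like cells with 3 or 4 Epcam UMIs had 892 CPM of Spink1, 145.0 CPM of Sox17 and 111 CPM of Cldn6. The 78 cells that met the rest of the rule with 1 or 2 Epcam UMIs had 243 CPM of Spink1, 100.4 CPM of Sox17 and 37.2 CPM of Cldn6. A further 187 cells had 3 or more Epcam UMIs but only 1 of the 5 genes, with 291 CPM of Spink1 and 102 CPM of Cldn6, and 624 had Epcam and none of the 5.

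Promoters of 4 genes are shown: Trh and Cer1 for the Trh-bearing cells, Afp for the visceral side and Cpn1 for liver-type secreted products. Cpn1 UMIs were found in 54.0% of endoderm-like cells. The 250 bases before the annotated start are printed 5′ to 3′ on the gene's strand, from RefSeq on GRCm38.p6. Capitals mark matches on either strand to TGTTTAC or TGTTTGC (a forkhead sequence read by FOXA factors) or GTTAAT (a sequence read by some homeodomain factors), and the 4 were chosen after the matches were seen. Cer1 lies at chr4:82885152-82885401 on the minus strand, Cpn1 at chr19:43986521-43986770 on the minus strand, Afp at chr5:90490464-90490713 on the plus strand, and Trh at chr6:92244651-92244900 on the minus strand.
Cer1: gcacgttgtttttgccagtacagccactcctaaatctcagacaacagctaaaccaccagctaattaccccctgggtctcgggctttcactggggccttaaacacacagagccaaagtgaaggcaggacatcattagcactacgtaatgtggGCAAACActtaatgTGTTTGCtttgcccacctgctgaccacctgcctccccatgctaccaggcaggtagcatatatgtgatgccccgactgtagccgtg
Cpn1: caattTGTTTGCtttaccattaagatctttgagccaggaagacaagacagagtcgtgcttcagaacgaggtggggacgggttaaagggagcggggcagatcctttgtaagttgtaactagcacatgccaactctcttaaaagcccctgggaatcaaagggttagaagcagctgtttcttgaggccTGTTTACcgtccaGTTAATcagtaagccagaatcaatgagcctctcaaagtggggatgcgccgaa
Afp: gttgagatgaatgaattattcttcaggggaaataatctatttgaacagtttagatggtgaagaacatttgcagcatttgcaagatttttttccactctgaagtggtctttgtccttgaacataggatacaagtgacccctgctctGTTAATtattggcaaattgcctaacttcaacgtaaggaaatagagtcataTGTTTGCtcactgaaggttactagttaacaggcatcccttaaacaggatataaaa
Trh: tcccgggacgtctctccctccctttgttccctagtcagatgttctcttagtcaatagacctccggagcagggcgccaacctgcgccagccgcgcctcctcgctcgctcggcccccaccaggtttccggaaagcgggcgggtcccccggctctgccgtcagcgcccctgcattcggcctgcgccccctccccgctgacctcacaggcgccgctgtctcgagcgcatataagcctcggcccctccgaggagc
Cer1 held 2 forkhead matches in opposite orientation, beginning 99 and 85 bases before the start. Cpn1 held 2 forkhead matches and 1 GTTAAT match. Afp held 1 of each. Trh held none, which says only that these letters are not in this window. Over the window of 250 bases before to 50 after the start, 5 of the 50 looked-up genes with a RefSeq promoter (10.0%) held a forkhead match, against 9.47% of 27025 genes. GTTAAT was in 10 of the 50, against 8.24% of genes, and TAATCC, a sequence read by OTX and GSC factors, in 4 of the 50, against 8.14%. The matches are descriptions and not binding sites.

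Set against the other kept cells, the endoderm-like cells carried an epithelial programme with genes of early gut and liver. Of 11860 genes with a UMI in at least 5% of either group, 263 (2.22%) were at least 4-fold higher and 23 (0.194%) at least 4-fold lower in endoderm-like cells, with 1 CPM added to both sides. By any amount, 46.5% of the 11860 genes were higher and 53.5% lower. The rule chose the cells on the same UMIs, so these counts are a description without a test. Of the 25 highest ratios outside the rule all but 1 are named, each higher in endoderm-like than in other cells in at least 10 of the 11 hash columns that held 10 or more endoderm-like cells.

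The leading gene was Ttr, the carrier of thyroid hormone and retinol-binding protein, at 179 CPM in endoderm-like cells and 1.21 CPM in other kept cells. Genes of cell junctions, polarity and trafficking followed: Cldn7 at 449 against 7.88 CPM, Cldn6 at 287 against 5.91 CPM, Crb3 at 126 against 2.76 CPM and Rab25, a small GTPase of epithelial recycling, at 27.4 against 0.645 CPM. Cldn6 UMIs were found in 97.6% of endoderm-like cells and Cldn7 UMIs in 95.9%. The 811 other kept cells with 3 or more Epcam UMIs were nearer than the rest in these genes. They had 104 CPM of Cldn7, 63.3 CPM of Cldn6, 28.6 CPM of Crb3 and 6.78 CPM of Rab25. Ttr was at 8.98 CPM in them and Foxa3 at 4.25 CPM. The transcription factor Foxa3, a forkhead factor of gut and liver, was at 51.2 CPM against 0.535 CPM. Emb, the immunoglobulin-family protein embigin that accompanies lactate transporters, was at 2390.2 CPM against 85.6 CPM and had a UMI in every endoderm-like cell.

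Further leading genes encode secreted or surface proteins. Ihh, the Hedgehog ligand that endoderm makes, was at 36.5 CPM in endoderm-like cells and 0.527 CPM in other kept cells. Liver-type secreted products included Cpn1, a carboxypeptidase subunit (32.2 against 0.300 CPM), Lect2, a hepatocyte-secreted protein (29.3 against 0.389 CPM) and Apom, an apolipoprotein (27.6 against 0.354 CPM). Fgf5, the FGF ligand of the primed epiblast, was at 66.7 CPM against 2.15 CPM but in only 41.3% of endoderm-like cells. The serine proteases Tmprss2 (48.3 against 1.12 CPM) and Prss8 (61.1 against 1.80 CPM), the transcriptional coregulator Cited1 (311 against 13.4 CPM), the complement regulator Cd55 (96.4 against 3.75 CPM) and the peptidase Dpp4 (25.5 against 0.315 CPM) stood in the same list. The other 7 were Pga5, Ap1m2, Tmem184a, 2210011C24Rik, Pcbd1, Defa30 and Gm5771, of which Defa30 (112 against 1.47 CPM) and Gm5771 (24.2 against 0.186 CPM) belong to families of near-identical copies that counting can mix up.

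**Figure D1:**
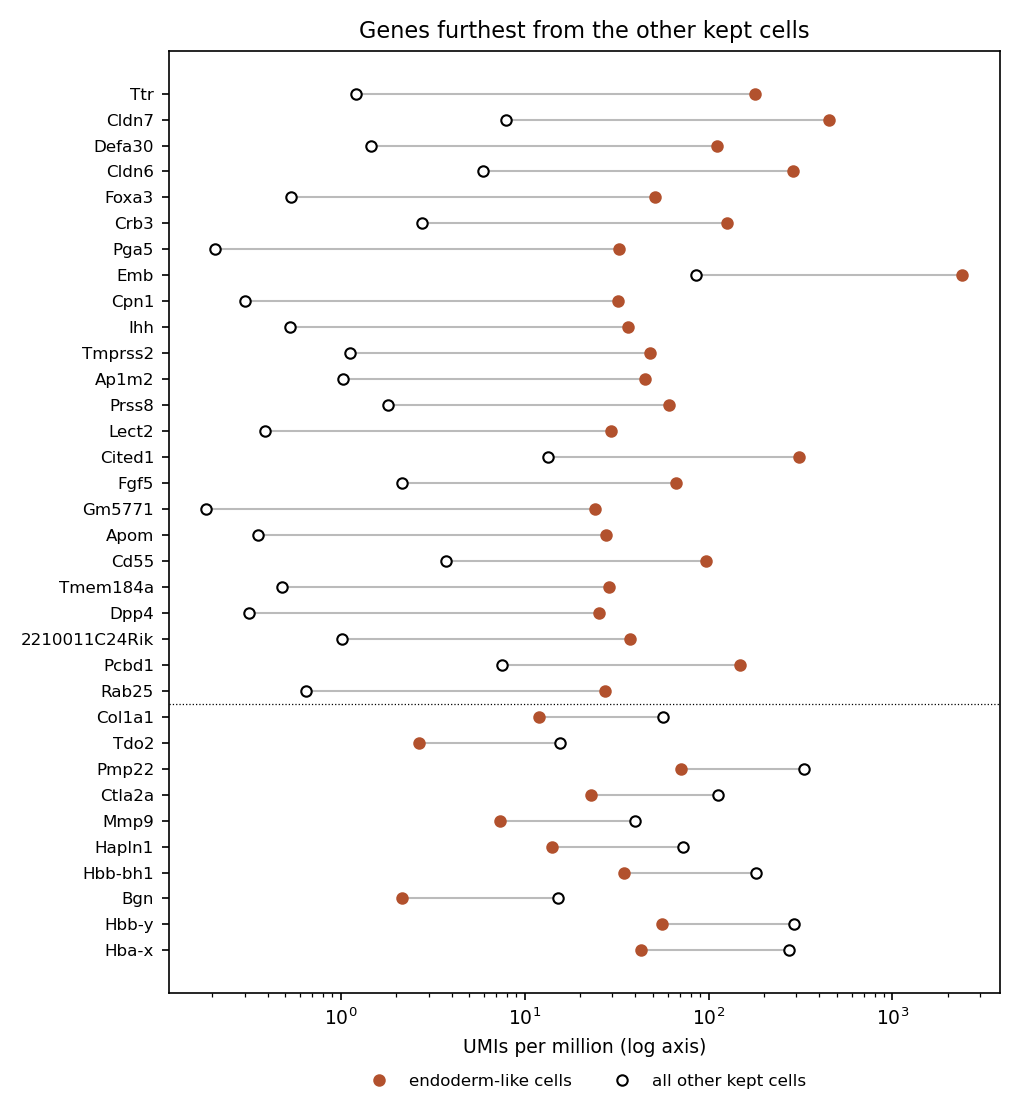
Levels in CPM (UMIs summed over all cells of the group, log axis) of the named highest genes and the 10 lowest, filled for endoderm-like cells and open for all other kept cells. Ttr lies at 179 against 1.21 CPM, the claudins Cldn6 and Cldn7 are high in the endoderm-like cells, and the globin genes Hba-x and Hbb-y lie the other way.

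Free RNA in the droplets was gauged in 238 cells with at least 100 globin UMIs, which should lack endoderm genes and had a median of 40990 UMIs. Ttr UMIs were found in 47.2% of endoderm-like cells and 2.52% of globin-rich cells. Foxa3 UMIs were found in 73.3% and 1.26%, and Spink1 UMIs in 95.2% and 21.4%. Apom UMIs were found in 35.5% of endoderm-like cells and in 0 of 238 globin-rich cells, which allows a share of up to 1.54%. After thinning each cell to 15000 UMIs, which left out 28 endoderm-like cells, the Ttr shares were 37.9% and 1.85%.

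The 10 genes with the smallest ratios included 3 globins and 4 matrix genes. The embryonic globins Hba-x (42.8 against 273 CPM), Hbb-y (55.6 against 292 CPM) and Hbb-bh1 (34.8 against 181 CPM) were the globins. Matrix genes were Bgn, a proteoglycan (2.14 against 15.2 CPM), Hapln1, a hyaluronan link protein (14.1 against 72.7 CPM), Mmp9, a matrix protease (7.35 against 39.6 CPM) and Col1a1, a fibrillar collagen (12.03 against 56.45 CPM). Ctla2a (23.02 against 112.8 CPM), Pmp22 (71.23 against 332.1 CPM) and Tdo2 (2.68 against 15.7 CPM) completed the group. In the 811 other kept cells with 3 or more Epcam UMIs, Hba-x was at 42.6, Hbb-bh1 at 39.7 and Ctla2a at 25.6 CPM. These lay close to the endoderm-like cells, while Hbb-y at 92.4, Col1a1 at 40.3 and Pmp22 at 231 CPM lay further from them. In the unmarked endoderm-like cells with a leading column Hba-x stood at 13.7 CPM and Col1a1 at 4.70 CPM.

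The definitive endoderm list held 16 genes, 3 of which the rule used and a further 3 of which the epithelial list also holds. Without the 3 rule genes, all 13 were higher in endoderm-like cells, 7 of them at least 4-fold. Their median log2 ratio was 2.16, against -0.03 over all 11860 genes, of which 46.5% were higher. Apart from the rule genes, Foxa1 was at 33.2 against 1.03 CPM, Otx2, a head homeobox factor, at 48.5 against 2.07 CPM, Lhx1 at 93.8 against 13.7 CPM and Gsc, the organizer homeobox factor, at 37.8 against 6.45 CPM. Eomes, the T-box factor that starts endoderm formation, was at 63.2 against 16.1 CPM. Gata4 (72.8 against 29.1 CPM) and Gata6 (90.04 against 46.1 CPM) were nearer to the other cells. Hhex (33.24 against 28.01 CPM) and the chemokine receptor Cxcr4 (15.99 against 12.86 CPM), often used to sort definitive endoderm, differed least.

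Visceral endoderm genes stood beside them. Of 27 genes in that list 18 reached the 5% detection minimum, 17 of those were higher in endoderm-like cells and 11 at least 4-fold, with a median log2 ratio of 2.15. Over all genes 46.5% were higher and 2.22% at least 4-fold. Besides Ttr, members included Cyp26a1, which degrades retinoic acid (182 against 37.0 CPM), and Apoe, a lipid carrier (1202 against 470 CPM). Afp, alpha-fetoprotein, was at 8.33 against 0.114 CPM, with UMIs in 14.2% of endoderm-like cells and 0.840% of globin-rich cells. The receptor pair of visceral endoderm was low, with Amn, amnionless, at 15.3 against 0.454 CPM and Cubn, cubilin, at 12.6 against 0.405 CPM. Most of these UMIs came from 21 cells, and in the other endoderm-like cells Amn was at 3.07 CPM and Cubn at 0.743 CPM. Apoa1 (3.24 against 0.110 CPM), Apob (4.39 against 0.0244 CPM) and Hnf4a (3.99 against 0.0579 CPM) were lower still, and Apoc2 was at 0 in both. By these markers the cells carry both definitive and visceral endoderm genes, so the label definitive endoderm-like names only a share of what they express.

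Of 27 gut tube genes 15 reached the detection minimum, of which 10 were higher in endoderm-like cells, 7 of them at least 4-fold, and 5 were lower. Over all genes 46.5% were higher, 2.22% at least 4-fold, and 53.5% were lower. The median log2 ratio of the gut tube genes was 1.81. The summed level of that list was 734 CPM in endoderm-like cells and 312 CPM in other kept cells. Higher members included the keratin Krt19 (395.6 and 36.5 CPM) and the epithelial factor Elf3 (18.03 and 0.951 CPM). Some regional factors were under the detection minimum. Nkx2-1, a thyroid and lung factor, was at 0.116 CPM in endoderm-like cells and 0.0259 CPM in other kept cells, the pancreatic factor Pdx1 was at 0.382 and 0.396 CPM, and Cdx1 was at 0.183 and 0.221 CPM. Lower members were Cdx2, a posterior factor, at 37.2 and 144 CPM, and Sox2, present in foregut, at 9.56 and 21.2 CPM, besides Isl1, Prox1 and Sox9. Of 25 Hox genes that reached the detection minimum, all 25 were lower in endoderm-like cells, where 53.5% of all genes were. Of the 25, 5 were at least 4-fold lower, where 0.194% of all genes were, such as Hoxb2 at 20.3 against 92.1 CPM and Hoxc8 at 7.01 against 30.8 CPM. Their summed level was 98.7 CPM in all endoderm-like cells, 46.1 CPM in the unmarked ones with a leading column and 430.3 CPM in other kept cells. Of 9 node and notochord genes that reached the minimum 6 were higher, 1 of them at least 4-fold (Foxa1), with a median log2 ratio of 0.99, while Noto (0.0997 against 0.0610 CPM) and Shh (0.764 against 0.497 CPM) were under it.

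Apart from Epcam, which the rule used, all 19 epithelial genes were higher in endoderm-like cells and 15 at least 4-fold, with a median log2 ratio of 3.35. Over all genes 46.5% were higher and 53.5% lower. E-cadherin (Cdh1) was at 90.3 against 5.01 CPM, the splicing factor Esrp1 at 25.99 against 0.962 CPM, and Tjp1, a junction scaffold, at 69.8 against 60.0 CPM. Mesenchymal genes ran the other way, with 10 of 12 lower, such as Vim, vimentin, at 768 against 1722 CPM and the repressor Zeb1 at 8.46 against 34.8 CPM. All 12 mesoderm genes were lower, including Hand1 at 138 against 576 CPM and Foxf1 at 13.5 against 60.8 CPM. The summed mesoderm list was 343.1 CPM in all endoderm-like cells, 181.4 CPM in the unmarked ones with a leading column, 674.3 CPM in those marked or without one, and 1160 CPM in other kept cells. The part of doublets in the mesoderm, endothelial and globin values was not tested.

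Signalling genes stand beside the 46.5% of all genes that were higher in endoderm-like cells and the 53.5% that were lower. The Nodal and BMP counts lay near these shares. Nodal ligand was at 36.8 CPM in endoderm-like cells and 8.92 CPM in other kept cells, its coreceptor Tdgf1 at 36.5 and 13.3 CPM and its feedback inhibitor Lefty1 at 13.3 and 2.17 CPM, while 5 of the 11 Nodal pathway genes that reached the detection minimum, leaving out the rule gene Cer1, were lower. Of 17 Wnt genes other than Cer1, 14 were higher, including the target Sp5 (57.4 and 6.79 CPM) and the receptors Fzd5 (9.42 and 0.881 CPM) and Fzd8 (10.7 and 2.16 CPM), and the ligand Rspo3 was lower (42.9 and 139.7 CPM). Among 12 BMP genes 5 were higher and 7 lower, with the target Id1 at 899 and 206 CPM and the ligand Bmp4 at 88.3 and 170.4 CPM. Fgfr4, an FGF receptor, was at 10.6 and 0.254 CPM and the ligand Fgf8 at 94.8 and 9.40 CPM. The glucose transporter Slc2a3 was at 684 and 91.6 CPM. All 12 S-phase and all 14 G2/M genes were lower in endoderm-like cells, by a median log2 ratio of -0.37 for S and -0.245 for G2/M.

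The endoderm-like cells were not uniform, and some carried Trh without Ttr or Ttr without Trh. Trh was at 2 or more UMIs with no Ttr UMI in 364 cells (27.6%), and Ttr was at 2 or more UMIs with no Trh UMI in 291 cells (22.1%). Both were at 2 or more UMIs in 113 cells (8.57%), and both were at 0 in 271 cells (20.5%). The remaining 280 cells (21.2%) fell in none of these sets. These sets were drawn from the UMIs, so what follows is a description of them. Levels of the general endoderm genes were close: Epcam 464 and 499 CPM, Foxa2 109 and 95.1 CPM, Sox17 192 and 229.6 CPM, Cldn6 289 and 293 CPM and Foxa1 33.9 and 32.4 CPM in Trh cells and Ttr cells.

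The genes with the largest ratios on the Trh side included homeobox factors, Wnt antagonists and FGF ligands. Otx2 was at 147 CPM in Trh cells and 2.21 CPM in Ttr cells, with UMIs in 77.2% and 4.12% of the cells. Gsc was at 106 and 2.35 CPM, Lhx1 at 274 and 7.87 CPM and Eomes at 128 and 22.7 CPM. The secreted Wnt antagonist Sfrp1 was at 212 and 2.94 CPM, Cer1 at 34.8 and 0.0735 CPM and Shisa2, an inhibitor of Wnt and FGF receptors, at 42.0 and 2.50 CPM. Fgf5 (187 and 4.56 CPM), Fgf8 (250.6 and 7.28 CPM), Lefty1 (42.5 and 0.441 CPM) and Tdgf1 (110.2 and 6.62 CPM) followed them. Cyp26a1, although in the visceral endoderm list, was also higher in Trh cells, at 397 and 80.7 CPM. Hhex was at 73.74 and 15.001 CPM and Cxcr4 at 29.97 and 8.97 CPM, so both lay mostly on this side. Not all genes of the definitive endoderm list did. Krt18 was at 1649 and 2622 CPM, Gata4 at 59.2 and 85.5 CPM and Cdh1 at 83.0 and 88.0 CPM in Trh cells and Ttr cells.

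The genes with the largest ratios on the Ttr side included secreted carriers. Apom was at 2.26 CPM in Trh cells and 69.6 CPM in Ttr cells, S100g, a calcium-binding protein of absorptive epithelia, at 2.64 and 86.0 CPM. Afp was at 0.451 and 17.8 CPM, Gc, the vitamin D carrier, at 0.645 and 18.53 CPM, and Mttp, which loads lipoproteins, at 4.51 and 29.9 CPM. Clu, clusterin, was at 43.6 and 488 CPM and Dpp4 at 3.67 and 56.0 CPM. Amn (1.68 and 52.4 CPM) and Dab2, an endocytic adaptor (13.1 and 115 CPM), also differed, but 21 cells carried much of this: Amn was at 756 CPM in those and 3.07 CPM in all other endoderm-like cells, and Dab2 at 1073 and 33.1 CPM. S100g was likewise at 778 CPM in those and 20.4 CPM in the others. Spink1, a rule gene, was at 713 and 2444 CPM. Trh cells had a median of 35048 UMIs and Ttr cells 40507 UMIs.

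**Figure D2:**
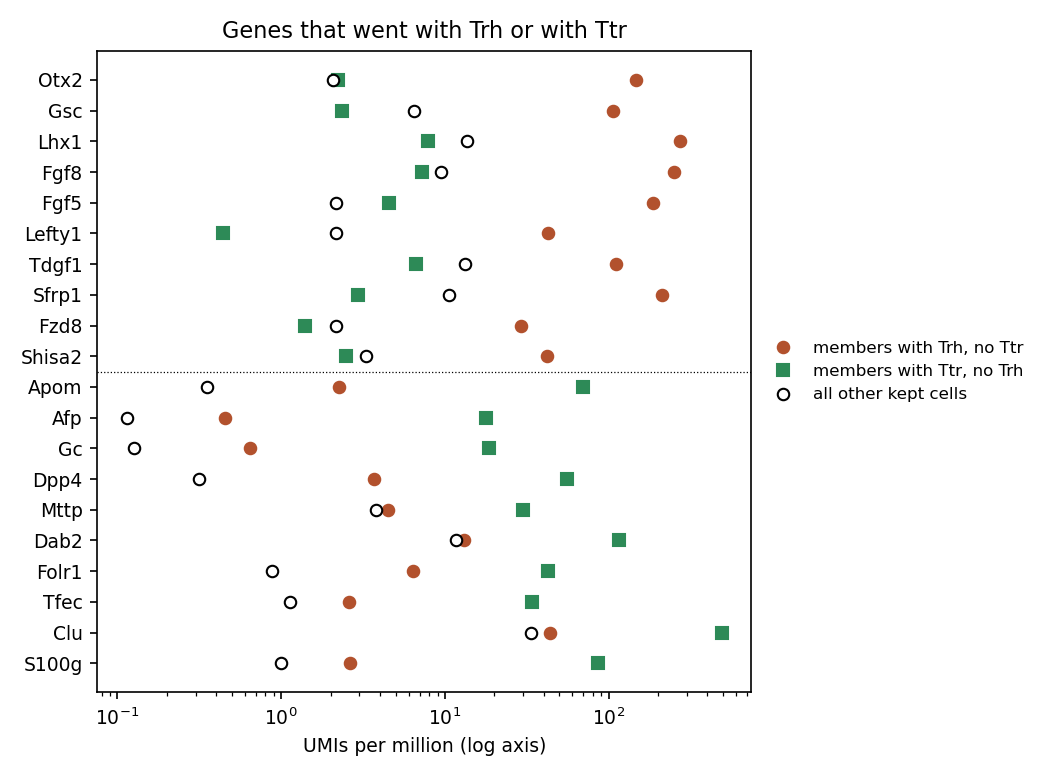
Levels in CPM (log axis) of 20 genes in endoderm-like cells with Trh and no Ttr (364 cells, circles), in those with Ttr and no Trh (291 cells, squares) and in all other kept cells (open circles). Otx2, Gsc, Lhx1, Sfrp1 and Fgf8 lie to the right in the Trh cells, and Apom, S100g, Clu and Afp in the Ttr cells.

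Rank correlations were taken over the 1017 unmarked endoderm-like cells, as a description over cells that share 1 library and differ in depth. Trh and Ttr were only weakly opposed, with a Spearman's rho of -0.309, and rho was -0.279 between Trh and Apom and -0.143 between Trh and Spink1. It was 0.629 between Trh and Otx2, 0.845 between Fgf8 and Fgf5, 0.803 between Otx2 and Sfrp1, 0.784 between Otx2 and Gsc, 0.621 between Ttr and Apom and -0.610 between Otx2 and Cited1. A set of 21 cells had 2 or more UMIs of both Cubn and Amn. They had 967 CPM of Ttr, 435 CPM of megalin (Lrp2, against 2.40 CPM in the other endoderm-like cells), 825 CPM of the homeobox gene Rhox5 (against 2.80 CPM), 1923 CPM of the fatty acid carrier Fabp3 (against 88.8 CPM) and 1073 CPM of Dab2 (against 33.1 CPM), and Foxa1 was at 2.05 CPM in them. Of these, 6 were in D2 (9.09% of its endoderm-like cells) and 0 in D31 or any B column.

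The share of kept cells that were endoderm-like differed between the hash columns. In the 7 D columns it was 4.84% at the lowest (D2), 11.6% at the median and 14.5% at the highest (D31, 221 of 1522 cells, exact Clopper-Pearson 95% interval 12.8 to 16.4%). It was 1.09% in B1 (12 of 1103 cells), 0.847% in B2 (7 of 826) and 1.26% in B3 (14 of 1112). Every D column lay above every B column. The mean was 10.3% ± 3.37 in D columns (SD, n = 7) and 1.07% ± 0.207 in B columns (SD, n = 3), a difference of 9.28 percentage points (two-sided exact permutation test, p = 0.01667, the smallest that this design can give). With the 5 D3 columns summed to 1 the means were 7.90% in D and 1.07% in B (exact permutation p = 0.1, again the smallest possible), and without any 1 B column the p was 0.05556, also the smallest possible.

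Depth, the share of Epcam-bearing cells and the hash counts also differed between the letters. Their part in the result was not tested beyond the values here. The median count of the leading hash column was 2333 to 3659.5 in D columns. It was 354 in B1, 473.5 in B2 and 493.5 in B3. In endoderm-like cells it was 2286 to 3744 in D columns and 243, 277 and 494 in B1, B2 and B3. The next column had medians of 33.5 to 44 in those D cells and 27.5 to 46 in those B cells. With a lead of at least 3 times, the mean shares were 10.46% in D and 1.081% in B columns. Kept cells had median depths of 37697 to 41150 UMIs in D columns and 35118.5 to 37179.5 UMIs in B columns. Thinned to 15000 UMIs per cell, the shares were 3.98 to 12.65% in D columns and 0.692 to 0.888% in B columns. Cells with 3 or more Epcam UMIs, whatever their other genes, made up 10.1 to 19.2% of kept cells in D columns and 4.77 to 5.57% in B columns. Of the C columns, C1 was at 4.93% (51 of 1034 cells) and CB at 1.53% (22 of 1440). Thinned, C1 was at 2.52%, below every D column and above every B column, and CB at 0.714%, within the B range.

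**Figure D3:**
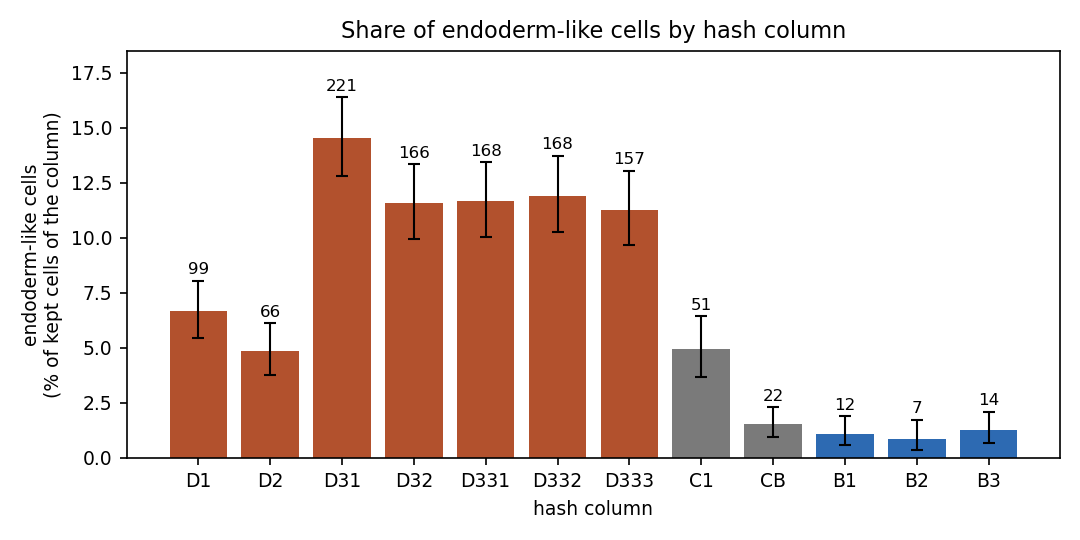
Percent of kept cells that were endoderm-like in each of the 12 hash columns, with exact 95% binomial intervals for counting error, D columns left, then C and B. The 7 D columns lie between 4.84 and 14.5%, the C columns at 4.93 and 1.53% and the 3 B columns between 0.847 and 1.26%.

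Within the endoderm-like cells, the balance of Trh and Ttr cells also varied by column. Trh cells without Ttr made up 46.2% of the endoderm-like cells in D31, 34.5% in D331, 26.7% in D333, 25.9% in D32, 24.4% in D332, 18.2% in D1 and 15.2% in D2. In C1 they made up 9.80%, in CB 4.55%, and in B1, B2 and B3 they were 1 of 12, 0 of 7 and 5 of 14 cells. The share with a Ttr UMI was lowest in D31 at 32.1% and highest in D1 at 63.6%. Over columns with at least 10 endoderm-like cells the Ttr share was 49.9% ± 9.63 in D (SD, n = 7) and 30.9% ± 3.37 in B (SD, n = 2), a difference of 18.9 points that did not pass the test (two-sided exact permutation p = 0.1111, where 0.05556 is the smallest possible). With the 7 cells of B2 added, 57.1% of which had a Ttr UMI, the B mean was 39.7% ± 15.3 (SD, n = 3) and the difference 10.2 points (exact permutation p = 0.2833).

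Gene levels within the endoderm-like cells were then compared between the letters, with UMIs summed per column in the 7 D columns and in B1 and B3. B2 had 7 such cells, under the minimum of 10, and stayed out of the test. Of 12033 genes, 1281 (10.6%) passed an adjusted p under 0.05 by edgeR's quasi-likelihood test with Benjamini-Hochberg adjustment, 627 higher in D (5.21%) and 654 lower (5.44%). The DESeq2 test called 1285, of which 465 were higher and 820 lower, so the split of directions depends on the tool. B1 and B3 held 498083 and 618447 UMIs of endoderm-like cells, against 2601225 to 8736359 in the D columns. The count was 577 without B1, 656 without B3 and 740 with the D3 columns summed to 1.

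The genes of the rule are given as levels without a test, since the cells were chosen on them. Trh stood at 188, 392 and 730.4 CPM (lowest, median and highest D column), against 16.1 CPM in B1 and 150.4 CPM in B3. The D columns all lay above both, which is not read as a result for a gene that chose the cells. Spink1 stood at 1376, 1607 and 2536 CPM in D columns, against 1723 and 1285 CPM in B1 and B3, and Epcam at 455, 537 and 607 CPM, against 717 and 492 CPM, both with overlap. Ttr, which the rule did not use, stood at 98.2, 196 and 459 CPM in D columns, against 171 and 29.1 CPM in B1 and B3, and the letters overlapped (adjusted p = 0.53, edgeR's quasi-likelihood test). The 7 cells of B2 had 402 CPM. Gsc stood at 13.8, 36.4 and 71.7 CPM in D columns, against 0 CPM in B1 and 3.23 CPM in B3, with adjusted p = 0.30 by the same test. Lhx1 (39.2 to 163 CPM in D, against 0 and 16.2 CPM in B1 and B3) and Otx2 (19.6 to 82.1 CPM in D, against 4.02 and 12.9 CPM) did not pass either, with adjusted p of 0.17 and 0.34 by edgeR. The DESeq2 test called all 3 genes (adjusted p = 0.00338 for Gsc, 0.0002066 for Lhx1 and 0.007075 for Otx2). The call of these 3 genes therefore depends on the tool.

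Of the 25 genes with the highest ratios in endoderm-like cells, 6 were called higher in D, where 5.21% of all genes were: Emb, Foxa3, Cldn7, Ap1m2, Pcbd1 and Defa30. The 25 were picked from a pool in which 1045 of the 1151 endoderm-like cells with a leading column were D, so neither this count nor its direction is read as a result. The level of Emb was 2598, 2741 and 2945 CPM at the lowest, median and highest D column, against 1550 CPM in B1 and 1446 CPM in B3. The log2 fold change was 0.96 ± 0.06 (SE; adjusted p = 9.746e-09, edgeR's quasi-likelihood test). Foxa3 stood at 54.3 to 66.1 CPM in D columns, against 34.1 and 16.2 CPM in B1 and B3, with a log2 fold change of 1.37 ± 0.22 (adjusted p = 0.000524, edgeR). Cldn7 averaged 488.8 ± 40.4 CPM in D and 355.8 ± 61.8 CPM in B (log2 fold change 0.54, adjusted p = 0.004749, edgeR). Without B3, Foxa3 (0.91, adjusted p = 0.06266) and Cldn7 (0.39, adjusted p = 0.1383) no longer passed edgeR's test, nor did Ap1m2 (0.74, adjusted p = 0.2247) and Pcbd1 (0.74, adjusted p = 0.1983). Ap1m2 also missed the threshold without B1 (adjusted p = 0.05825, edgeR).

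Apart from the rule genes, 1 of 13 definitive endoderm genes was called higher in D, where 5.21% of all genes were (Gata6, 96.0 against 69.9 CPM, adjusted p = 0.03442, and 0.5431 without B3) and 2 lower, where 5.44% were (Krt18 and Cdh1), all by edgeR's quasi-likelihood test. Without B1 and without B3 the adjusted p by edgeR was 0.2676 and 0.09483 for Krt18 and 0.431 and 0.07879 for Cdh1, so neither call held on 1 B column. Among 20 visceral endoderm genes tested only Apoe was called (5.0%, below the 10.6% of all genes), at 1295 ± 109 CPM in D and 2029 ± 265 CPM in B (log2 fold change -0.58 ± 0.08, adjusted p = 0.0001788, edgeR). The median D over B log2 fold changes were 1.01 for the definitive list without the rule genes and 0.82 for the visceral list, against 0.06 over all genes tested. Of 19 epithelial genes other than Epcam, 2 were called higher in D (Cldn7 and Cldn3) and 5 lower, including Krt8 (2912 against 4064 CPM) and Krt19 (409.5 against 886.9 CPM). Krt8 lost its call without B1 (adjusted p = 0.1454, edgeR), and Krt19 lost it without B1 (0.2371), without B3 (0.1232) and without D32 (0.05102).

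Krt7, S100a11 and Cdkn2a were higher in B. Krt7, a simple-epithelium keratin, was at 7.70, 11.1 and 16.4 CPM (lowest, median and highest D column), against 40.2 CPM in B1 and 50.1 CPM in B3. Its log2 fold change was -1.86 ± 0.33 (adjusted p = 0.00179, edgeR's quasi-likelihood test), and without B3 it was -1.65 (adjusted p = 0.1006). The 7 D columns of S100a11, a calcium-binding protein, held 268 to 332.5 CPM, against 689 and 718 CPM in B1 and B3 (log2 fold change -1.25 ± 0.08, adjusted p = 5.783e-09, edgeR). The cell-cycle inhibitor locus Cdkn2a held 22.6 to 33.3 CPM in D columns, against 128 and 107 CPM in B1 and B3 (log2 fold change -2.01, adjusted p = 3.718e-07, edgeR). S100a11, Cdkn2a and the next genes were chosen after their values were seen, by their small p. The imprinted genes Peg10 (340.5 ± 22.3 CPM in D and 111 ± 0.81 CPM in B) and Grb10 (15.8 ± 2.93 and 120 ± 20.8 CPM) were called in opposite directions. S100a11, Cdkn2a, Peg10 and Grb10 kept their calls without each hash column in turn.

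Signalling and metabolic genes were called in both directions. Bambi, a BMP pseudoreceptor, was at 120.5, 152 and 164 CPM (lowest, median and highest D column), against 26.1 CPM in B1 and 43.7 CPM in B3. Its log2 fold change of 2.11 ± 0.21 passed the test (adjusted p = 7.51e-06, edgeR's quasi-likelihood test). Of 12 BMP genes 3 were called higher in D (Bambi, Id1 and Smad6), where 5.21% of all genes were. The ligand Bmp2 (58.0 against 126.6 CPM) was the 1 called lower, where 5.44% of all genes were. Without B3, Id1 (adjusted p = 0.1102), Smad6 (0.2262) and Bmp2 (0.07088) did not pass edgeR's test, and neither did Id1 (0.07851) and Smad6 (0.05359) without B1. The DNA methyltransferase Dnmt3b averaged 321 ± 43.1 CPM in D and 91.3 ± 12.7 CPM in B (log2 fold change 1.88, adjusted p = 0.000308, edgeR). The glucose transporter Slc2a1 stood at 450.7 to 494.3 CPM in D columns, against 333.3 and 274.9 CPM in B1 and B3 (adjusted p = 1.441e-05, edgeR), and the stress-response factor Atf3 averaged 8.76 ± 2.38 and 71.1 ± 6.89 CPM (log2 fold change -2.92, adjusted p = 2.66e-06, edgeR). Nes, an intermediate filament gene, averaged 23.8 CPM in D and 73.6 CPM in B (adjusted p = 6.259e-05, edgeR). Bambi, Dnmt3b, Slc2a1, Atf3 and Nes kept their calls without each hash column in turn.

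Calls in the remaining lists stand beside the 10.6% of all genes. Of 12 hypoxia and glycolysis genes 3 were called higher in D (Slc2a1, Ldha and Pfkl) and 1 lower (Pgk1), 33.3% in all, of which Slc2a1 held without each hash column. Of 14 basement membrane genes 3 (21.4%) were called lower in D (Hspg2, Itga3 and Itga6). Ldha, Pfkl, Pgk1, Itga3 and Itga6 lost their calls without B1, B3 or either, at adjusted p of 0.05363 to 0.3023 by edgeR. Of 9 neuroectoderm genes 3 (33.3%) were called lower in D, namely Nes, Zic1 and Pax3. Cell-cycle genes were called higher in D in 2 of 12 for S phase (Tyms and Rrm2) and 1 of 14 for G2/M (Cenpf), and all 3 lost the call without B1 (adjusted p = 0.162, 0.2937 and 0.09764, edgeR). None of 22 Hox, 13 FGF, 10 primitive streak, 10 endothelial, 12 mesenchymal and 7 erythroid genes was called by edgeR's quasi-likelihood test. At an unadjusted p under 0.05 the counts were 2, 2, 2, 1, 2 and 0, and the DESeq2 test called 0, 2, 6, 0, 1 and 0. The 6 primitive streak genes that DESeq2 called were Mixl1, Eomes, Fgf8, Gsc, Lhx1 and Evx1. In the order above, the lists had median D over B log2 fold changes of 4.095, 0.39, 2.95, 0.97, 0.66 and 2.04. Over all genes tested the median was 0.06. The summed Hox level was 50.5 to 111.2 CPM in D columns and 17.8 to 20.1 CPM across B1 and B3. B1 and B3 held few cells, so a missing call is not read as equal levels.

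The 10 called genes with the largest folds in each direction rested on few UMIs in B. The 10 highest in D all had 0 UMIs in the 2 B columns, so they entered the test through the D columns alone. A fold is given against a floor of 3 UMIs over B1 and B3, which covers counting error there only. Cldn3, a claudin, averaged 9.32 ± 2.03 CPM in D, 3.57-fold above this floor. The other 9 were 1.89-fold (Pcsk5) to 3.29-fold (Syndig1) above it, with Gm45184, Frat1, Ap5b1, Gstt2, Fndc5, Map1a and D130020L05Rik between them. With the 7 cells of B2 added, Map1a, Frat1 and Pcsk5 did not pass. Their log2 fold changes were then 0.64, 2.64 and 2.89 (adjusted p = 0.6823, 0.07271 and 0.05712, edgeR). All 10 lost their calls without B1 (adjusted p from 0.06421 for Cldn3 to 0.2185 for Gm45184) and without B3 (0.08714 to 0.2627) by edgeR. Lowest in D were Tnfrsf11b, the decoy receptor osteoprotegerin (0.102 against 11.5 CPM, 12 UMIs in B, log2 fold change -6.49, adjusted p = 0.0001934, edgeR), and Vtn, vitronectin (0.104 against 10.46 CPM, 11 UMIs in B). Krt6a, a stress keratin, was at 60.2 CPM in B1 and 9.70 CPM in B3, against a mean of 0.958 CPM in D. Without B1 its adjusted p was 0.06063, and that of Itgb6 was 0.3026 (edgeR). The others were Zic1, Fxyd3, Tmsb15b1, Traf1, Ncmap, Itgb6 and Mnx1, with 7 to 15 UMIs each in B.

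**Figure D4:**
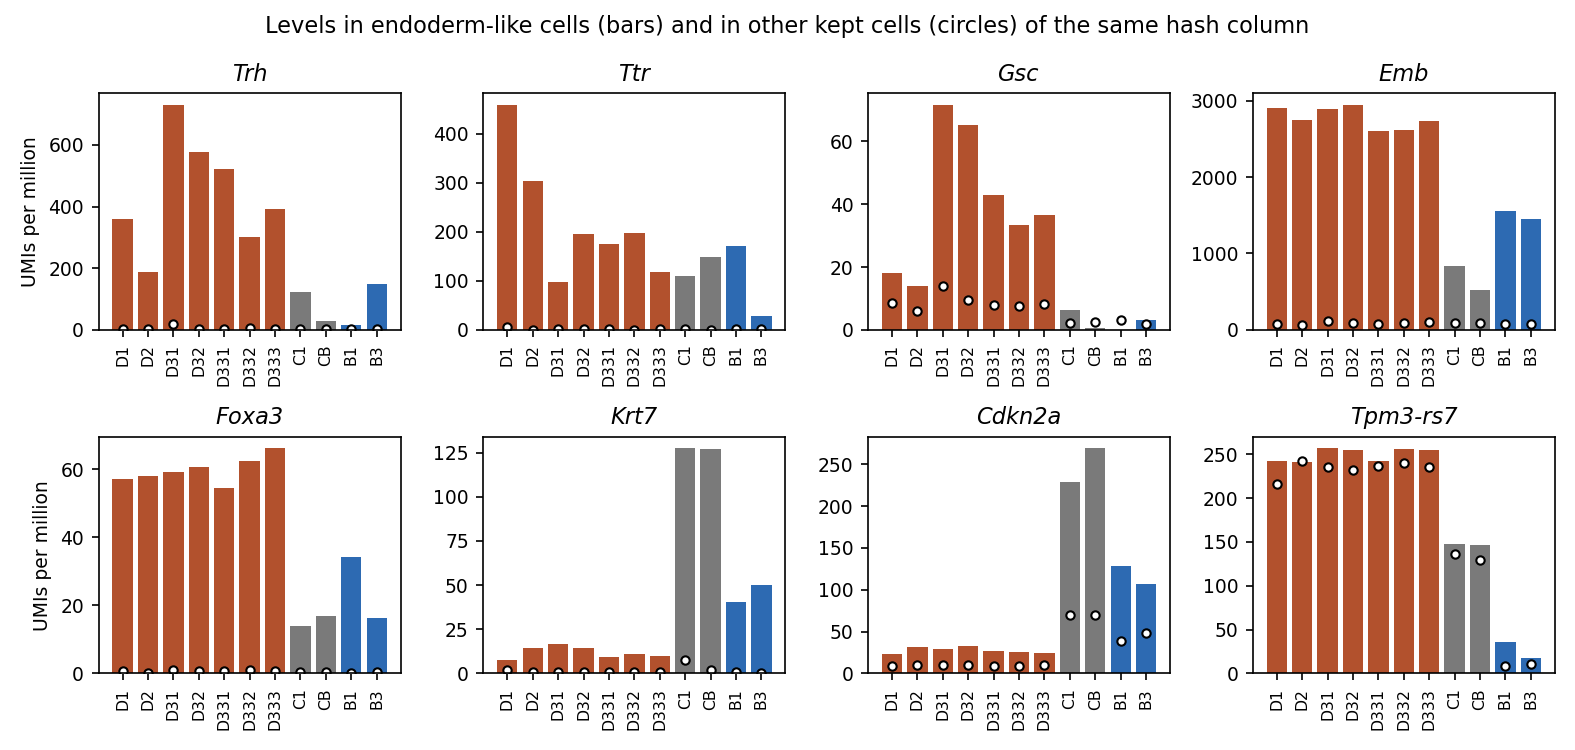
Levels in CPM of 8 genes by hash column, bars for endoderm-like cells and circles for other kept cells, columns D1 to D333 left, then C1 and CB, then B1 and B3. Emb lies at 2598 to 2945 CPM in D bars and at 1550 and 1446 CPM in B bars, and Krt7 and Cdkn2a are higher in the C and B bars than in any D bar.

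In the other kept cells of the same columns, 9903 of 14731 genes (67.2%) passed between D and B by edgeR's quasi-likelihood test, 4929 higher in D (33.5%) and 4974 lower (33.8%). The mix of cell types in these sums may differ between the letters and was not measured. They also held far more UMIs per B column (41587042 and 43022964), so the counts are not set against each other. The difference itself was tested as an interaction, which asks whether D minus B in endoderm-like cells differed from D minus B in other kept cells. It passed for 904 of 14579 genes (6.2%), 688 (4.72%) with a positive and 216 (1.48%) with a negative difference. Without B3 the count was 375 and without B1 it was 470. The DESeq2 test gave 907, of which 598 were positive and 309 negative.

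The 8 genes with the smallest p in the interaction were all higher in B than in D columns among the other kept cells. Cotl1, an actin-binding protein, averaged 326.5 ± 30.96 CPM in D and 343.5 ± 65.04 CPM in B endoderm-like cells, but 78.6 CPM in D and 358 CPM in B other cells. Its log2 difference of differences was 2.20 ± 0.10 (SE; adjusted p = 9.266e-12, edgeR's quasi-likelihood test). Gsn, gelsolin, averaged 109 and 169 CPM in D and B endoderm-like cells and 12.1 and 93.2 CPM in D and B other cells (difference 2.40, adjusted p = 4.979e-11, edgeR). Hmga2, a chromatin protein, averaged 242 and 218 CPM in endoderm-like cells and 370 and 1107 CPM in other cells (difference 1.81, adjusted p = 1.896e-08, edgeR). S100a11, Tmsb4x, Sgk1, Rhoc and Tmem2 passed in the same direction.

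Sox17, a gene of the rule and so given without a test, averaged 232 CPM in D and 233.5 CPM in B endoderm-like cells, and 5.29 and 13.9 CPM in D and B other cells. Foxa1, which the rule did not use, averaged 35.8 and 24.3 CPM in endoderm-like cells and 0.680 and 2.30 CPM in other cells (difference 2.44, adjusted p = 1.147e-05, edgeR). Id1, the BMP target, averaged 975.6 and 567.6 CPM in endoderm-like cells and 161.4 and 249.3 CPM in other cells (difference 1.48, adjusted p = 8.721e-07, edgeR). Ptch1, the Hedgehog receptor and target, averaged 13.17 and 31.03 CPM in endoderm-like cells and 30.02 and 14.08 CPM in other cells (difference -2.28, adjusted p = 0.0001969, edgeR), and without B3 it did not pass (adjusted p = 0.06172). Of 14 basement membrane genes 7 passed the interaction, against 6.2% of all genes. Of these, Nid1, an entactin of that layer, and Col18a1 held without B1 and without B3, and the other 5 lost their calls without B3: Agrn (adjusted p = 0.06771), Lamb1 (0.07383), Col4a1 (0.1465), Itgb1 (0.1764) and Itga6 (0.2168), all by edgeR.

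The 10 largest positive differences were Cdh5, Cldn3, Hoxd11, Stambpl1, Grap, Foxc1, Tie1, Gja3, Mctp1 and Notch4, each with 0 UMIs in the endoderm-like cells of B1 and B3, so no fold is given for them. Without B3 all 10 lost their calls, at adjusted p of 0.0562 (Stambpl1) to 0.1903 (Grap and Gja3) by edgeR. Cdh5, an endothelial cadherin, was at 5.61 CPM in D endoderm-like cells and at 9.84 and 53.2 CPM in D and B other cells. Among the 10 largest negative were Plekhb1, Sybu, Itgb6, Nr0b1, Vtn, 9130230L23Rik, Tnfrsf11b, Sept4 and Cdkl1, and each of these lost its call without B1 or without B3 (adjusted p from 0.06394 for Itgb6 to 0.9828 for Plekhb1, edgeR).

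**Figure D5:**
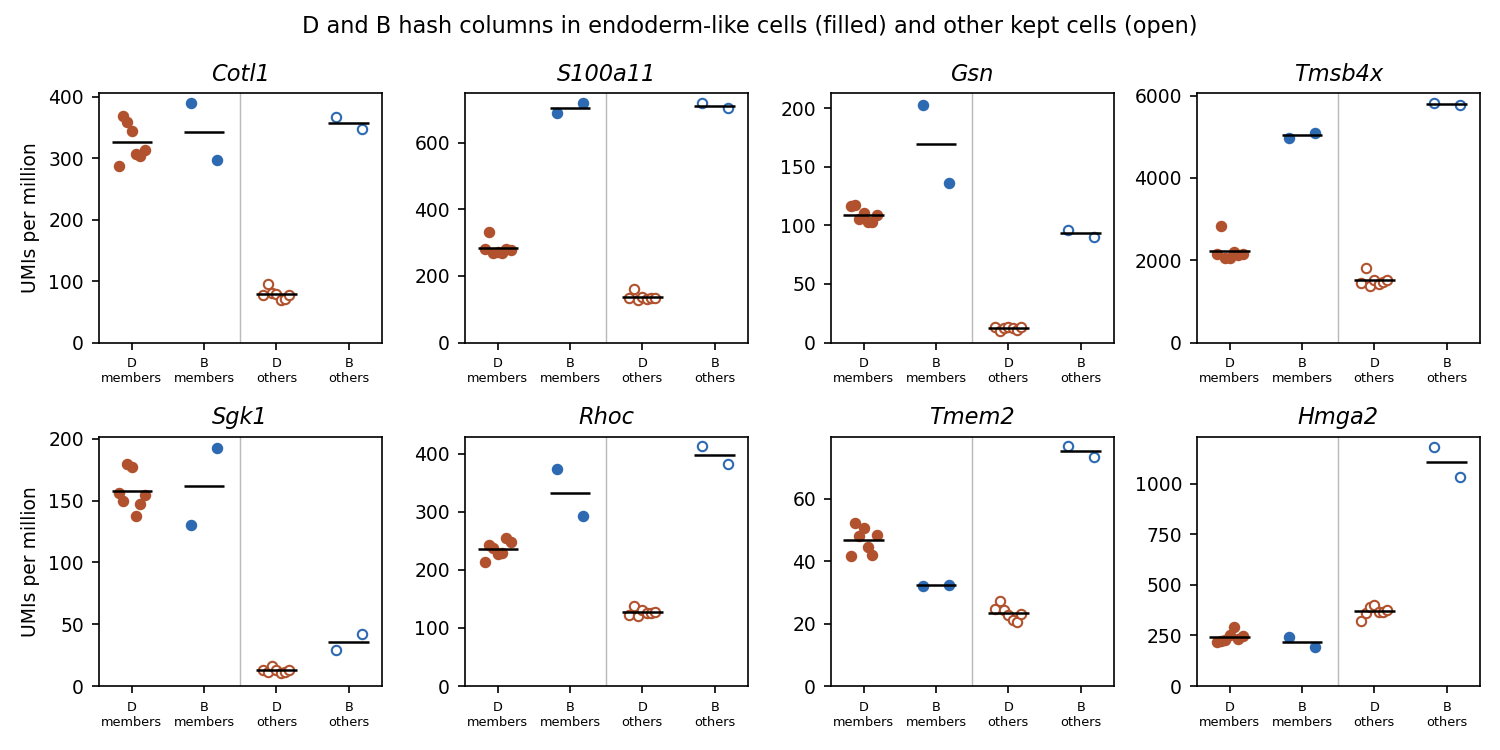
Levels in CPM (linear axes) of the 8 genes with the smallest interaction p, per hash column, in endoderm-like cells (filled) and other kept cells (open) of D and B columns, with lines at the means. The means of Cotl1 lie at 326.5 and 343.5 CPM in D and B endoderm-like cells and at 78.6 and 358 CPM in the other cells.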

How the data were processed

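Gene UMI counts of 1 embryoid body library and a table of hash counts for the same 20134 barcodes were used as the authors deposited them. Per the file headers the counts come from Cell Ranger 3.1.0, and per the submitters' processing notes the genome build is mm10. No counting or doublet filter is given in the sources used here beyond these. The count matrix held 31053 gene rows, and its 71 repeated symbols were kept as separate rows.

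Cells were kept at 1000 or more genes and at most 15% mitochondrial UMIs, and a hash column was assigned where it led the next by at least 2 times. Members, gene lists and tests were chosen with earlier results of these data known. Levels are UMIs summed over cells and given as CPM, UMIs scaled to a common total. Shares were compared over hash columns by an exact permutation test. Summed UMI counts were tested with edgeR 4.0.16 (filterByExpr, TMM, quasi-likelihood, Benjamini-Hochberg adjustment over all genes, threshold 0.05) in R 4.3.3, with limma 3.58.1 present and DESeq2 1.42.0 as an alternative. The interaction was fitted with hash column as a block. The tests were tried on simulated data first. Cells were read with Python 3.11.15, scanpy 1.11.5, numpy 2.4.6, pandas 2.3.3 and scipy 1.17.1, and figures were drawn with matplotlib 3.10.9. Scrublet was run with an expected rate of 0.15 and 30 components and marked 1224 kept cells at a threshold of 0.3813. It was used to describe and as an alternative, not to filter.

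The genes named against other kept cells were the 25 highest ratios with a UMI in at least 20% of endoderm-like cells and the 10 lowest with a UMI in at least 20% of other kept cells. Between letters they were the 10 highest and 10 lowest folds among called genes. Genes of a list that a sentence describes were named too, and others are said to be chosen after their values were seen. Alternatives changed the cell rule, the hash ratio, the filters, the scaling, the test, the doublets and each hash column. Intervals and floors cover counting error only. A gene among the highest ratios and a gene among the lowest interaction values are not reported here.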

Additional observations from a re-analysis of the deposited data

Results flagged for a closer look

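In the endoderm-like cells S100a11 stood at 332.5 CPM in D2, apart from the other D columns, whose median was 274 CPM. It was the only outlying column among 22 groups of columns examined, and chance flags about 1 in 20.

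For 8 genes the D minus B difference in endoderm-like cells differed from that in other kept cells by edgeR's quasi-likelihood test of the interaction. The log2 difference of differences was 2.2 for Cotl1, 1.14 for S100a11, 2.4 for Gsn, 0.824 for Tmsb4x, 1.53 for Sgk1, 1.23 for Rhoc, 2.3 for Tmem2 and 1.81 for Hmga2, and each passed in all 22 alternatives. S100a11 averaged 283 and 703 CPM in D and B endoderm-like cells and 136 and 711 CPM in D and B other cells. Tmsb4x averaged 2226 and 5041 CPM in D and B endoderm-like cells and 1513 and 5802 CPM in the other cells. The mix of cell types among the other kept cells was not compared between the letters, and its part in these differences was not tested.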

How the results depend on the processing

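The share of endoderm-like cells was 7.42% by the rule, 7.85% with 1 Epcam UMI, 5.77% with 3 of the 5 genes, 6.58% without marked doublets and 5.80% when cells were thinned first. The D minus B difference in share was 8.59 to 10.2 points without each hash column, and 6.84 points (exact permutation p = 0.1) with the D3 columns summed to 1. Leaving out a B column ended the call by construction, since the smallest p is then 0.05556. Genes called between D and B in endoderm-like cells numbered 503 with 3 of the 5 genes, 325 without cells bearing Ttr, 740 with the D3 columns summed to 1, and 577 to 1400 without each hash column. The first 2 of these settings leave only B3 in B, which is then assumed to vary like the D columns. Interaction calls numbered 340 with 3 of the 5 genes and 375 to 1023 without each hash column. Against other cells with 3 or more Epcam UMIs, 99 genes in place of 263 were at least 4-fold higher. Values changed sign for 4 named genes: Smad3 (0.51 without cells bearing Ttr), Plekhb1 (1.58) at a hash ratio of 3, Sept4 (5.63 with 3 of the 5 genes) and Hoxd9 (-1.55 with columns of 5 or more such cells), and Plekhb1 ran from -8.48 to 1.03 without each hash column; the cause was not tested. Of 78 and 76 genes followed in the comparison and the interaction, 21 and 17 were called under every alternative. Thinned cells and a minimum of 20 endoderm-like cells per column were not run for the gene tests, because no B column had enough cells. No paired analysis was possible because the D and B columns with 10 or more endoderm-like cells share only the number 1. B rested on 26 cells in B1 and B3, and a gene under 3 UMIs there had no measurable level.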

Other observations

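The C columns held 73 endoderm-like cells, 51 in C1 and 22 in CB, that differed from both other letters. The genes below were chosen after their values were seen, and no test was made. Their levels are UMIs summed over all endoderm-like cells of a letter, with the cells of B2 included in B. Smooth-muscle-type cytoskeletal genes were high. Acta2, smooth muscle actin, was at 80.8 CPM in D, 2139.75 CPM in C and 229 CPM in B cells, Tagln at 128, 2434 and 900 CPM, and Actc1, cardiac actin, at 2.08, 121.1 and 13.03 CPM. The other kept cells of the C columns were high too, at 1614 CPM of Acta2, 1311 CPM of Tagln and 115.9 CPM of Actc1, so these levels are not particular to the endoderm-like cells. The chaperone Cryab was at 15.5, 445 and 169 CPM, the lectin Lgals3 at 7.45, 121 and 26.1 CPM, and Fgfbp1, an FGF carrier, at 1.70, 50.4 and 4.80 CPM in D, C and B. The other kept C cells held 71.6, 32.3 and 1.77 CPM of these 3 genes. The organizer genes Gsc (45.1, 4.37 and 1.37 CPM) and Lhx1 (115, 17.5 and 6.86 CPM) were low in C as in B. Neither Trh nor Ttr had a UMI in 50.98% of the endoderm-like cells of C1 and 77.3% of those of CB.

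Afp stood at 2.17 to 10.8 CPM in the endoderm-like cells of D columns, 37.9 CPM in C1, 45.0 CPM in CB, and 2.01 and 1.62 CPM in B1 and B3. Emb, at 2598 to 2945 CPM in D columns, was at 832 CPM in C1, 527 CPM in CB, and 1550 and 1446 CPM in B1 and B3.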
